A study of Mus musculus with 18 samples.

Results

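The nontumoral skin of mice treated with DMBA and TPA was compared between Zfp36 ΔK14 animals and Zfp36 fl/fl controls. The comparison rests on 6 of the 18 deposited RNA-seq libraries, 3 per genotype, chosen by the labels that give the state of the skin and the genotype. Every gene with enough counts in these 6 libraries entered it, which left 16232 of the 52636 genes in the table.

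Zfp36 fl/fl mice carry loxP sites on both sides of Zfp36. Zfp36 ΔK14 mice carry the same floxed alleles and a Cre transgene under the human keratin 14 promoter, which is active in the basal layer of the epidermis and in hair follicles, so that other cell types keep the gene. Both lines were on a C57BL/6 background and the controls were littermates. Mice of both genotypes received DMBA, a mutagen, on the back skin and then repeated TPA, a phorbol ester that promotes papillomas. Skin next to papillomas was taken at the end, and epidermal cells were sorted by flow cytometry as EpCAM+ and negative for CD45, CD140a and CD31. The label for the cell type reads tumoral, whereas the extraction protocol and the study's methods describe adjacent skin without tumor. The remaining 12 libraries come from mock-treated skin and from papillomas of the same genotypes, and serve below only for comparison. The labels do not tie each library to its own animal, so the spread between replicates may be technical in part.

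Zfp36 encodes tristetraprolin (TTP), a zinc finger protein that binds AU-rich elements in the 3′ untranslated region (UTR) of mRNAs and recruits the CCR4-NOT deadenylase, which shortens the poly(A) tail and leads to decay. Its best known targets encode inflammatory mediators such as TNF and the CXCL1 chemokine, and it also acts on its own mRNA. In keratinocytes, phorbol esters and wounding induce alarmins, stress keratins and secreted proteases, so treated skin is a tissue in which both kinds of transcript can be followed.

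The 6 libraries held between 4124233 and 7404684 counts, and a single count was worth 0.109 to 0.219 CPM (counts scaled to a common library size with TMM factors). All levels below are CPM, which compare a gene between libraries but not genes with each other. All 12 keratinocyte markers were counted in every library, with summed levels of 9881 to 20710.1 CPM in fl/fl and 8259 to 29348 CPM in ΔK14. Papilloma markers, a list that drew in part on earlier results of these data, summed to 335 to 354 CPM in fl/fl and 353 to 774 CPM in ΔK14, against 2650 to 9106 CPM in the papilloma libraries. Treated ΔK14 replicate 1 held the level of the fl/fl libraries, and ΔK14 replicates 2 and 3 stood above it. Krt6a, a stress keratin whose levels are given below, made up most of the sum in ΔK14 replicates 2 and 3. Of 13 tested members of this list, 3 were higher (Sprr1b, Krt6a and Nrg1) and 1 lower (Krt8) at an unadjusted p below 0.05 (edgeR). Over all tested genes these shares were 2.06% and 3.49%.

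Libraries of one genotype differed widely. Components were taken over the most variable tested genes only. Component 1 of the 6 libraries took 51.3% of the variance in those genes. It placed the ΔK14 libraries at −34.4, 0.25 and 34.8 and the fl/fl libraries at 7.35, 15.8 and −23.8. The genotypes overlapped on this axis. Some epidermal genes varied with it in part, but those named here not in order over all libraries. Krt1 and Krt10, keratins of the suprabasal layers, were highest in ΔK14 replicate 3 and lowest in fl/fl replicate 3. The hair follicle gene Fgf5 had its extremes the opposite way, at 8.58, 10.3 and 23.4 CPM in fl/fl and 14.2, 5.61 and 0.169 CPM in ΔK14. Component 2, with 29.1% of the variance, separated the genotypes, with fl/fl libraries at 13, 19.6 and 17.1 and ΔK14 libraries at −22.2, −5.51 and −21.9.

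**Figure D1:**
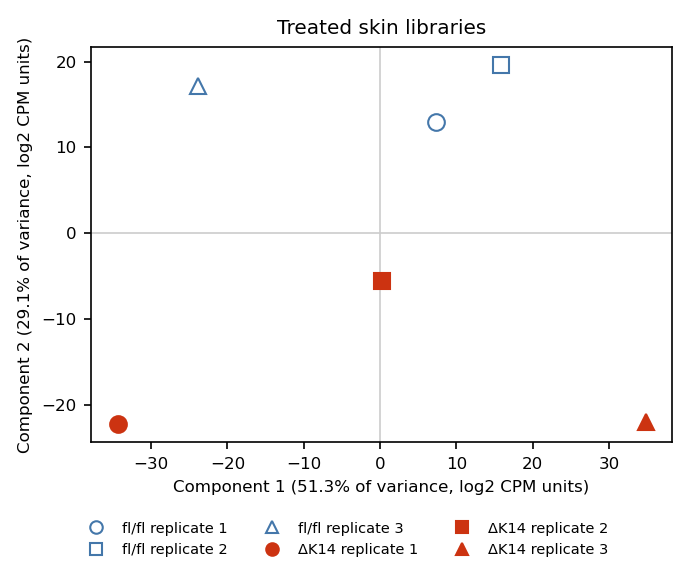
Principal components of the 6 treated skin libraries on log2 CPM of the most variable tested genes. Component 1 (51.3% of the variance in those genes) is on the horizontal and component 2 (29.1%) on the vertical axis. The ΔK14 libraries lie at −34.4, 0.25 and 34.8 on component 1 and all below the fl/fl libraries on component 2.

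Zfp36 was the targeted gene and was checked first. Zfp36 was measured at 368, 505 and 256 CPM in the fl/fl libraries and at 26.7, 29.8 and 15.2 CPM in the ΔK14 libraries. Every ΔK14 library lay below every fl/fl library. The log2 fold change was −3.99 (SE 0.35, edgeR quasi-likelihood test, Benjamini-Hochberg adjusted p = 0.0391), a mean level 15.9-fold lower. In bulk RNA, fewer cells that express a gene and less RNA per cell cannot be told apart, so the remaining 26.7, 29.8 and 15.2 CPM may come from either. The paralogs encode proteins that bind the same elements, and no change in either passed the test: Zfp36l1 stood at 264, 222 and 224 CPM in fl/fl and 348, 251 and 307 CPM in ΔK14 with overlapping groups, and Zfp36l2 at 212, 254 and 123 CPM and 117, 144 and 245 CPM, also with overlap. Zfp36l3 was not tested, with 0, 0 and 2 counts in the fl/fl libraries and 0, 0 and 0 in the ΔK14 libraries.

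AU-rich sites are shown here because TTP binding starts from them. The sequences are 25-base windows from the longest annotated 3′ UTR of each gene, taken from GENCODE vM21 transcripts on GRCm38 and written 5′ to 3′ on the transcript strand, with every copy of the TATTTAT heptamer in capitals. Zfp36, Tnf and Cxcl1 are shown as transcripts known to carry such elements, Lrat as the gene among those most different upward that holds one, and Clmn and Egln3 as examples among those most different downward.
Zfp36: tgggcccttTATTTATgacgacttt
Tnf: atTATTTATTATTTATTTATtattt
Cxcl1: ggtccTATTTATTTATgTATTTATt
Lrat: atgtgtttaTATTTATagagcacaa
Clmn: gtgcactctTATTTATtgatcattg
Egln3: tcatgtcctTATTTATtttgtttat
These windows lie in the 3′ UTR at chr7:28376968-28376992 on the minus strand (Zfp36), chr17:35199684-35199708 on the minus strand (Tnf), chr5:90892605-90892629 on the plus strand (Cxcl1), chr3:82896907-82896931 on the minus strand (Lrat), chr12:104763293-104763317 on the minus strand (Clmn) and chr12:54179142-54179166 on the minus strand (Egln3). The Tnf 3′ UTR held 8 heptamers, that of Cxcl1 6 and that of Zfp36 3, whereas Lrat held 2, Clmn 1 and Egln3 1.

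Across the whole transcriptome, 1 of 16232 tested genes passed an adjusted p below 0.05 with a fold change above 2, which is 0.00616% called, and that gene was Zfp36 itself. At an unadjusted p below 0.05 there were 334 genes with higher levels in ΔK14 (2.06%) and 567 with lower levels (3.49%), together 901 or 5.55%. In 937 tested genes (5.77%) every ΔK14 library was above every fl/fl library, and in 963 (5.93%) every one was below. The count depended on the tool: DESeq2 called 36 genes (0.222%), 22 of them higher (0.136%) and 14 lower (0.0863%), and the edgeR exact test called 44 (0.271%), with 31 genes shared by these lists. It also depended on the filter, since without a low-count filter the quasi-likelihood test called 218. The robust form of the quasi-likelihood test called 0, with Zfp36 at an adjusted p of 0.0529 and 888 genes at an unadjusted p below 0.05.

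Single libraries moved the count as well. Leaving out fl/fl replicate 1, fl/fl replicate 2 or ΔK14 replicate 2 left 0 calls, and leaving out fl/fl replicate 3 left 1. Without ΔK14 replicate 1 there were 12 calls, namely Zfp36 and 11 genes with higher levels: Krt6b, Krt6a, Krt16, S100a8, S100a9, Chil1, Klk13, Pla2g4e, Gm11597, Gm44383 and Gm44342. Without ΔK14 replicate 3 there were 5, namely Zfp36, Plekhg2, S100a8, S100a9 and Stc1. Genes at an unadjusted p below 0.05 in either direction moved too. Without fl/fl replicates 1, 2 and 3 in turn they were 552 of 16567, 662 of 16977 and 769 of 16492 tested genes. Without ΔK14 replicates 1, 2 and 3 they were 1200 of 16969, 946 of 16461 and 1463 of 17094. Counts of list members at that p in these fits, given below, stand beside these totals. With the position on component 1 as a covariate, an alternative chosen after seeing the data and drawn from the same counts, 54 genes were called, 31 higher and 23 lower in ΔK14.

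**Figure D2:**
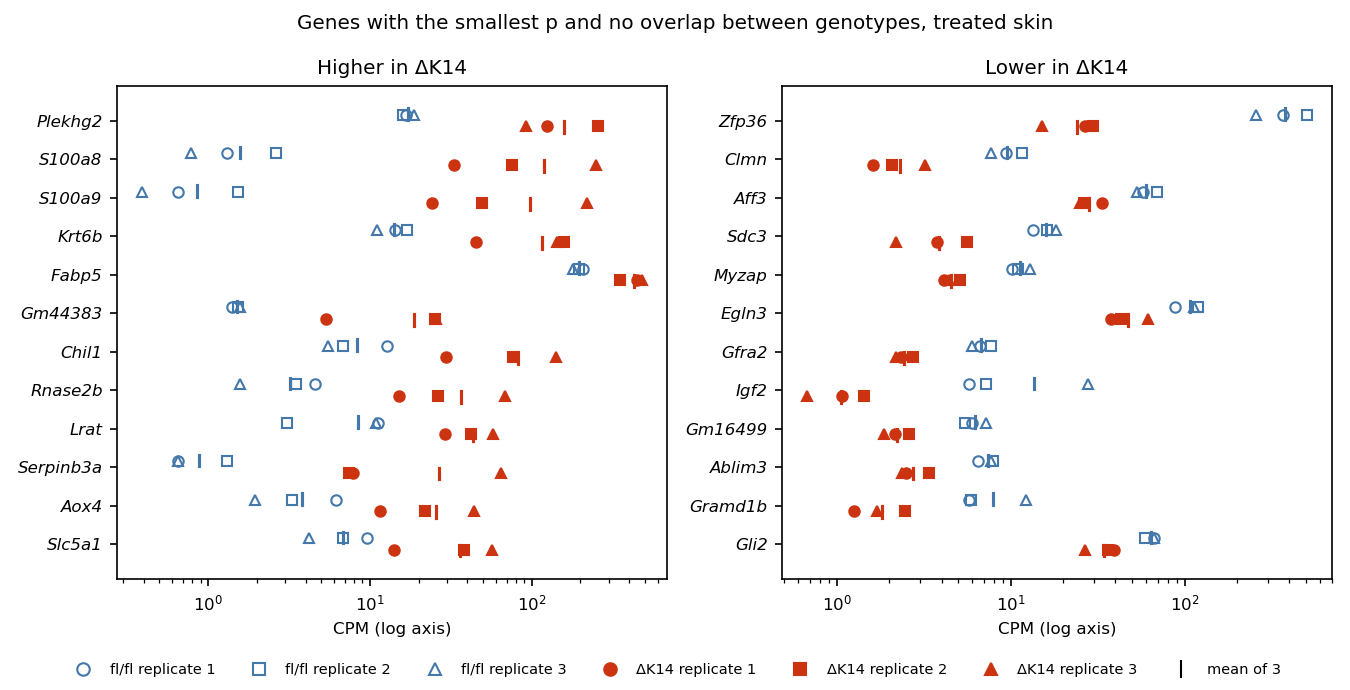
CPM per library on a log axis for the 12 genes in each direction with the smallest p among those whose genotypes do not overlap and whose higher mean is at least 5 CPM. Open blue symbols are fl/fl and filled red symbols ΔK14 libraries, shapes give the replicate number and ticks the mean of 3. S100a8 runs from 0.784 to 2.63 CPM in fl/fl and from 33 to 249 CPM in ΔK14.

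The 12 genes with the smallest p among those higher in all ΔK14 libraries were Plekhg2, S100a8, S100a9, Krt6b, Fabp5, Gm44383, Chil1, Rnase2b, Lrat, Serpinb3a, Aox4 and Slc5a1. Their fold changes ran from 2.15 to 122, and their adjusted p from 0.221 to 0.754, so none passed the main test. DESeq2 and the edgeR exact test each called all 12. In 10 of the 12 the highest library was ΔK14 replicate 3 and in 2 it was ΔK14 replicate 2.

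S100a8 and S100a9 encode the subunits of calprotectin, an alarmin that keratinocytes and neutrophils release in inflamed skin. The level of S100a8 was 1.30, 2.63 and 0.784 CPM in fl/fl replicates 1 to 3 and 33, 75.8 and 249 CPM in ΔK14 replicates 1 to 3. Levels of S100a9 were 0.652, 1.54 and 0.392 CPM in the fl/fl libraries, and in the ΔK14 libraries 24.2, 49.2 and 221 CPM. Both genes were near the level of a few counts in fl/fl skin and were highest in ΔK14 replicate 3 and lowest, among ΔK14 libraries, in replicate 1. The log2 fold change was 6.32 for S100a8 (SE 0.86, edgeR adjusted p = 0.385) and 6.93 for S100a9 (SE 1.02, edgeR adjusted p = 0.403). S100a8 was called without ΔK14 replicate 3 (log2 fold change 5.24, edgeR adjusted p = 0.0154), so the library with the highest level did not carry the difference alone. Over all alternatives its adjusted p ran from 4.83e-40 to 0.999. Chil1, which encodes a chitinase-like secreted protein, stood at 12.8, 6.80 and 5.49 CPM in fl/fl and 29.6, 76.9 and 141 CPM in ΔK14 (log2 fold change 3.25, SE 0.57, edgeR adjusted p = 0.530), and its adjusted p ran from 4.99e-22 to 1 over the alternatives.

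In the list of alarmins and antimicrobial genes, 15 of 27 members were tested and 0 were called, with 5 at an unadjusted p below 0.05 and higher (S100a8, S100a9, Chil1, Lcn2 and Slpi) and 1 lower (Saa3), beside 2.06% and 3.49% of all tested genes. The median log2 fold change of the tested members was 0.17, beside 0.02 over all tested genes, and leaving out 1 library gave medians of 0.063 to 0.46. Lcn2, a siderophore-binding protein of the innate response, stood at 3.8, 5.26 and 2.35 CPM and 4.13, 12.9 and 24.7 CPM, and the groups overlapped. Saa3, an acute phase protein, stood at 2.39, 3.51 and 2.22 CPM and 1.08, 0.783 and 0.338 CPM, with every ΔK14 library lower. Neutrophil markers were measured beside these genes, and the 19 summed to 22.1 to 46.3 CPM in fl/fl and 21.5 to 32.1 CPM in ΔK14. The highest sum was that of fl/fl replicate 2, where 16 of the 19 were at 0. Only Ngp, Il1r2 and Padi4 were counted there, so the sums rest on few genes and cannot stand for neutrophil content. Camp, Retnlg, Fpr2 and Mrgpra2a were at 0 in all 6 libraries. Among these 6, Ly6g and Cxcr1 were counted only in ΔK14 replicate 3 and Csf3r only in ΔK14 replicate 2. Stfa2l1 and Trem1 were counted only in ΔK14 replicate 1, Clec4d only in fl/fl replicate 1 and Ltf only in fl/fl replicate 3. Only 2 of the 19, Il1r2 and Padi4, had enough counts to be tested, and both overlapped between genotypes. Without a low-count filter Cxcr2 was called higher in ΔK14 (log2 fold change 3.56, edgeR adjusted p = 0.00143).

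The study itself named Chil1, S100a8, S100a9, Klk6 and Serpinb3a, among the few genes that it reports as different between genotypes in treated skin by edgeR. It chose them on these samples, so their direction is not independent evidence. All 5 were higher in every ΔK14 library than in every fl/fl library, against 5.77% of all tested genes. The edgeR quasi-likelihood test called 0 of them, whereas DESeq2 called all 5 and the edgeR exact test all but Klk6. Which edgeR test the study used is not stated in its methods. Serpinb3a, a serine and cysteine protease inhibitor of squamous epithelium, stood at 0.652, 1.32 and 0.654 CPM and 7.90, 7.44 and 64.8 CPM, so ΔK14 replicate 3 lay far above the other ΔK14 libraries.

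Keratins that mark stressed or hyperproliferative epidermis had the highest median among the 25 functional lists, which leave out marker lists and those taken from the study. All 5 members were tested, their median log2 fold change was 1.30, and Krt6b, Krt16 and Krt6a were at an unadjusted p below 0.05. Krt6b was measured at 14.2, 16.9 and 11.1 CPM in the fl/fl libraries and at 45.4, 158 and 143 CPM in the ΔK14 libraries. The level of Krt16 was 70.9, 89.3 and 58.1 CPM in fl/fl replicates 1 to 3 and 97.1, 346 and 561 CPM in ΔK14 replicates 1 to 3. Levels of Krt6a were 166, 147 and 148 CPM in the fl/fl libraries, and in the ΔK14 libraries 147, 492 and 512 CPM. ΔK14 replicates 2 and 3 lay above every fl/fl library in these genes, while ΔK14 replicate 1 stayed at 147 CPM for Krt6a, within the fl/fl range. The log2 fold changes were 3.03 for Krt6b (SE 0.45, edgeR adjusted p = 0.403), 2.18 for Krt16 (SE 0.54, adjusted p = 0.816) and 1.30 for Krt6a (SE 0.41, adjusted p = 0.897). Without ΔK14 replicate 1 all 3 were called. Krt75, a companion layer keratin of the hair follicle in the same list, stood at 94.8, 77.4 and 225 CPM and 141, 96.5 and 28.6 CPM with overlap. Gm44383, an unnamed locus on chromosome 15 like the type II keratin genes, stood at 1.41, 1.54 and 1.57 CPM and 5.38, 25.2 and 25.5 CPM. Krt6a and Krt6b are near-identical copies whose reads can be split between them, which makes the single values uncertain.

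Kallikreins and related serine proteases cleave contacts between cornified cells. The table held 18 members, 12 were tested, 6 were higher at an unadjusted p below 0.05 (Klk13, Klk6, Klk7, Klk8, Klk10 and Klk5), 1 was lower (Prss8), and 0 were called, beside 2.06% higher and 3.49% lower at that p over all tested genes. The median log2 fold change was 1.14. Leaving out 1 library gave medians of 0.70 to 1.54 and 3 to 7 members higher at that p, with 3 without ΔK14 replicate 2, ΔK14 replicate 3 or fl/fl replicate 3 and the lowest median without fl/fl replicate 3. Klk13 was measured at 0.869, 1.97 and 0.523 CPM in the fl/fl libraries and at 2.33, 13.2 and 21.5 CPM in the ΔK14 libraries. The level of Klk6 was 4.56, 1.75 and 0.784 CPM in fl/fl replicates 1 to 3 and 6.28, 45.6 and 9.97 CPM in ΔK14 replicates 1 to 3. Levels of Klk7 were 43.1, 28.5 and 11.8 CPM in the fl/fl libraries, and in the ΔK14 libraries 42.2, 160.3 and 106 CPM. Klk6 was highest in ΔK14 replicate 2 and Klk13 in ΔK14 replicate 3, and for Klk7 the ΔK14 replicate 1 library lay within the fl/fl range. Only Klk13 and Klk6 had groups that did not overlap in the upward direction, beside 5.77% of all tested genes. The log2 fold changes were 3.54 for Klk13 (SE 0.81, edgeR adjusted p = 0.816) and 3.05 for Klk6 (SE 0.86, adjusted p = 0.866).

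Clade B serpins, which inhibit such proteases, showed a narrower pattern. Of 19 members 12 were tested, with a median log2 fold change of 0.27, and Serpinb3a and Serpinb3b were higher at an unadjusted p below 0.05. Serpinb3b stood at 5.76, 8.55 and 1.05 CPM and 6.46, 22.1 and 52.7 CPM with overlapping groups. Among cornified envelope genes 10 of 28 were tested (median 0.63), and Tgm1 and Flg were at an unadjusted p below 0.05. Tgm1, the transglutaminase that crosslinks the envelope, stood at 9.23, 8.11 and 8.89 CPM in fl/fl and 11.3, 23.2 and 24.7 CPM in ΔK14 without overlap. Flg, the precursor of filaggrin, stood at 7.71, 8.33 and 0.523 CPM and 3.77, 20.2 and 53.3 CPM. Its levels rose along component 1 within each genotype, but not in order over all libraries. Of the small proline-rich and late envelope genes 6 of 21 were tested (median 0.93), and Sprr1b stood at 3.26, 1.32 and 0.261 CPM and 5.74, 10.2 and 22 CPM. Without ΔK14 replicate 3 the median of this list was −0.20, that of the serpins −0.19 and that of the cornified envelope 0.36.

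Markers of the epidermal layers were described next. Suprabasal genes had a median of 0.47 over 16 tested members, with Grhl3 and Dsc1 higher and Krt77 lower at an unadjusted p below 0.05, and without ΔK14 replicate 3 the median was −0.033. Grhl3, a transcription factor of barrier formation, stood at 30.1, 32.2 and 38.2 CPM and 46.8, 63.4 and 45.1 CPM. Krt77, a keratin of sweat gland ducts and of suprabasal mouse epidermis, stood at 333, 836 and 152 CPM and 45.8, 267 and 99.2 CPM with overlap. The basal list had a median of −0.10 over 16 members, with Pdpn higher and Krt15 lower at that p. Genes of the lipid barrier had a median of 0.32 over 22, with the ceramide genes Degs2 and Ugcg higher, and without ΔK14 replicate 3 the median was −0.024. Without ΔK14 replicate 1 the lipid barrier list had 7 members higher at that p, beside 1200 of 16969 tested genes in either direction. Without ΔK14 replicate 2 or fl/fl replicate 3 this list had 0. None of these was called.

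**Figure D3:**
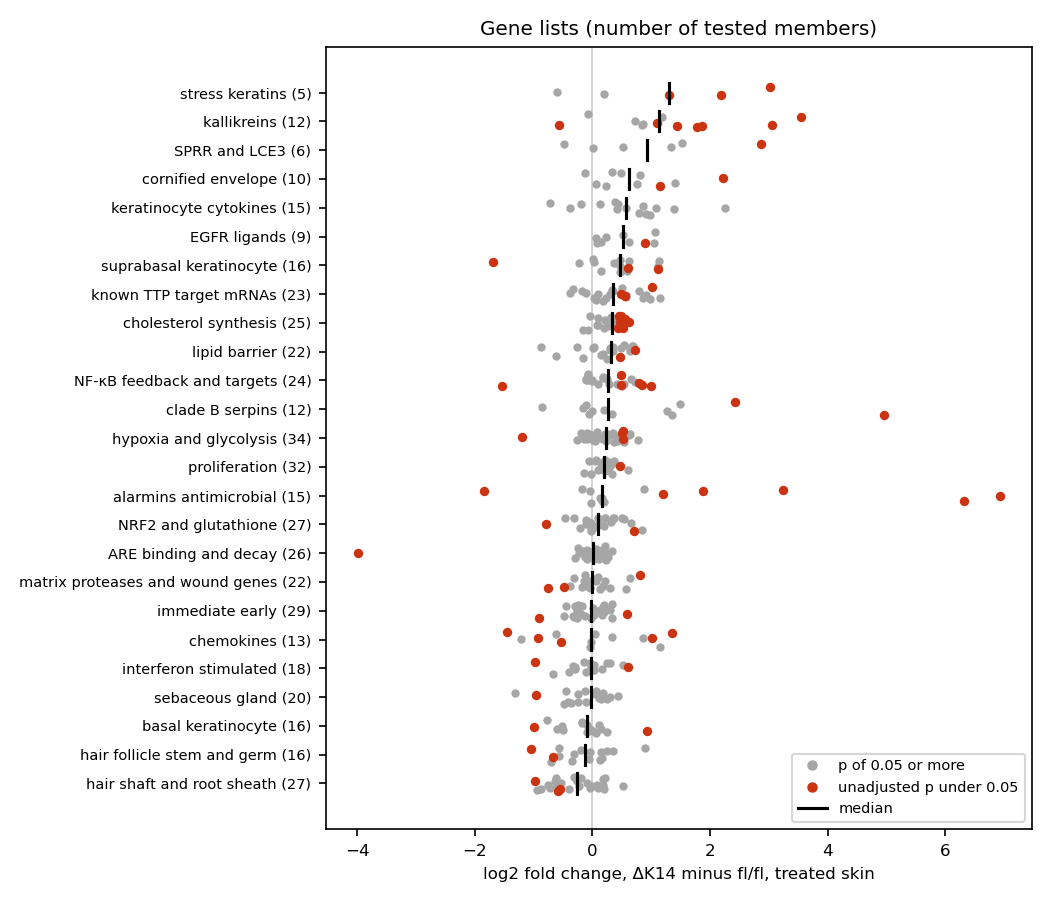
Log2 fold change (ΔK14 minus fl/fl, treated skin) of each tested member of 25 gene lists, with the number tested in brackets, a black line at the median and red points at an unadjusted p below 0.05. Stress keratins and kallikreins have the highest medians, 1.30 and 1.14, and the only member called is Zfp36, at −3.99 in the list of AU-rich element binding and decay factors.

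Beyond these, metabolic and detoxifying enzymes and transporters were among the most different genes. Fabp5, the epidermal fatty acid-binding protein, varied little between replicates. Fabp5 was measured at 208, 196 and 179.6 CPM in the fl/fl libraries and at 448, 349 and 481 CPM in the ΔK14 libraries. The libraries of each genotype lay close together, and the log2 fold change was 1.11 (SE 0.18, edgeR adjusted p = 0.423), with adjusted p from 7.84e-06 to 1 over the alternatives. Lrat, which esterifies retinol for storage, stood at 11.2, 3.07 and 11 CPM and 29.2, 42 and 58 CPM (log2 fold change 2.28, SE 0.43, edgeR adjusted p = 0.621). Aox4, an aldehyde oxidase that can form retinoic acid, stood at 6.19, 3.29 and 1.96 CPM and 11.5, 21.8 and 43.8 CPM, and Slc5a1, a sodium-coupled glucose transporter, at 9.56, 6.80 and 4.18 CPM and 14.2, 38.2 and 56.5 CPM. Rnase2b, a member of the RNase A family, stood at 4.56, 3.51 and 1.57 CPM and 15.1, 26.4 and 68.6 CPM. In each of the last 4 genes ΔK14 replicate 1 was the lowest ΔK14 library and replicate 3 the highest.

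Plekhg2 encodes a guanine nucleotide exchange factor and is a neighbor of the deleted gene. It lies on chromosome 7 from 28359604 to 28372599 on the minus strand (GRCm38), with 4184 bases between it and Zfp36, downstream of it. The level of Plekhg2 was 16.8, 16 and 18.8 CPM in fl/fl replicates 1 to 3 and 124, 256 and 92.8 CPM in ΔK14 replicates 1 to 3. The fl/fl libraries lay close together, and the lowest ΔK14 library stood far above the highest of them. The log2 fold change was 3.17 (SE 0.38, edgeR adjusted p = 0.221). The window of 100 kb on both sides of Zfp36 held 12 other tested genes, of which Plekhg2 was the 1 at an unadjusted p below 0.05. The other 11, among them Supt5, Rps16, Med29, Paf1 and Samd4b, had log2 fold changes from −0.37 to 0.26. Gm44710, annotated antisense to Zfp36 and overlapping it, stood at 9.12, 9.43 and 10.9 CPM and 14, 11.9 and 8.45 CPM. Whether counting used strand is not given in the sources used here, so reads of overlapping genes cannot be told apart.

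Among genes with lower levels in every ΔK14 library, the 11 with the smallest p after Zfp36 were Clmn, Aff3, Sdc3, Myzap, Egln3, Gfra2, Igf2, Gm16499, Ablim3, Gramd1b and Gli2, with fold changes of 1.90 to 12.6 and adjusted p of 0.423 to 0.716. DESeq2 called 7 of the 11 and the edgeR exact test 10. Levels of Clmn were 9.34, 11.6 and 7.71 CPM in the fl/fl libraries, and in the ΔK14 libraries 1.61, 2.09 and 3.21 CPM. Aff3 was measured at 57.8, 69.5 and 53.5 CPM in the fl/fl libraries and at 33.4, 26.5 and 25 CPM in the ΔK14 libraries. The level of Egln3 was 87.9, 119.5 and 112 CPM in fl/fl replicates 1 to 3 and 37.5, 42.9 and 61.4 CPM in ΔK14 replicates 1 to 3. In all 3 the groups were apart and the libraries of each genotype were close together. Clmn encodes an actin-binding membrane protein, Aff3 a factor of transcript elongation, and Egln3 a prolyl hydroxylase that marks hypoxia-inducible factor for decay. Gli2 encodes a transcription factor of the Hedgehog pathway and stood at 66.9, 58.8 and 66.4 CPM and 39.5, 36.4 and 26.7 CPM. Sdc3, a heparan sulfate proteoglycan, stood at 13.5, 16.2 and 18.3 CPM and 3.77, 5.61 and 2.20 CPM. Igf2, a growth factor, stood at 5.76, 7.24 and 27.7 CPM and 1.08, 1.44 and 0.676 CPM, with fl/fl replicate 3 far above the other fl/fl libraries. Gfra2, a receptor of the GDNF family, stood at 6.62, 7.68 and 6.01 CPM and 2.33, 2.74 and 2.20 CPM.

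Among the 25 functional lists, those of hair follicle genes had the lowest medians. Of hair shaft and root sheath genes 27 of 31 were tested, with a median of −0.27. A log2 fold change above 0 was seen in 7, beside 8469 of all 16232 tested genes. Tchh, Foxn1 and Hoxc13 were lower at an unadjusted p below 0.05, beside 3.49% of all tested genes. Tchh, which encodes trichohyalin of the inner root sheath, stood at 414, 397 and 702 CPM and 278, 365 and 136 CPM. In the list of follicle stem cell and germ genes (median −0.13 over 16), Lgr5 and Tbx1 were lower. Lgr5, the receptor of R-spondins on follicle stem cells, stood at 113, 126 and 131 CPM and 49, 96.1 and 35.3 CPM, with all ΔK14 libraries lower. Without ΔK14 replicate 3 the median of the shaft list was 0.013, and without ΔK14 replicate 1 it was −0.86. Of sebaceous gland genes 20 were tested (median −0.032), with Awat2 lower. The part of the sorted cell mix in these values was not tested.

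Transcripts known as TTP targets in other cells came next. Of 28 listed members 23 were tested, and 19 had a log2 fold change above 0, beside 8469 of all 16232 tested genes. The median of the 23 was 0.35, beside 0.02 over all tested genes. Nfkbiz, Cxcl1 and Ccnd1 were higher at an unadjusted p below 0.05, which is 3 of 23 beside 2.06% of all tested genes, and 0 were called. Levels of Nfkbiz were 246, 301 and 233 CPM in the fl/fl libraries, and in the ΔK14 libraries 349, 379.6 and 384 CPM. Tnf was measured at 14.2, 10.3 and 19.4 CPM in the fl/fl libraries and at 41.6, 22.1 and 14.2 CPM in the ΔK14 libraries. The level of Cxcl1 was 10.6, 12.3 and 17.7 CPM in fl/fl replicates 1 to 3 and 34.5, 35.1 and 13.9 CPM in ΔK14 replicates 1 to 3. Nfkbiz, which encodes an atypical IκB protein, was higher in every ΔK14 library. For Tnf and the chemokine gene Cxcl1, ΔK14 replicates 1 and 2 were above the fl/fl libraries and ΔK14 replicate 3 was within their range. The log2 fold changes were 0.49 for Nfkbiz (SE 0.16, edgeR adjusted p = 0.897), 0.79 for Tnf (SE 0.40, adjusted p = 0.904) and 1.02 for Cxcl1 (SE 0.37, adjusted p = 0.897). Leaving out 1 library gave 1 to 10 members at an unadjusted p below 0.05 and higher, with medians of 0.27 to 0.54. The count was 10 without ΔK14 replicate 3 and 1 without ΔK14 replicate 2 or without either of the fl/fl libraries numbered 1 and 2. The count over all tested genes moved as well. In either direction 1463 of 17094 were at that p without ΔK14 replicate 3, and 552 of 16567 without fl/fl replicate 1.

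Among keratinocyte cytokines 15 of 26 were tested, and 12 had a log2 fold change above 0, beside 8469 of all 16232 tested genes. The median was 0.57 and 0 members were at an unadjusted p below 0.05. Medians with 1 library left out ran from 0.37 to 0.75, and 0 to 5 members were then at that p and higher. Il1f9, which encodes IL-36γ, stood at 4.56, 6.14 and 0.915 CPM and 2.69, 7.31 and 45.3 CPM, so its highest value came from ΔK14 replicate 3. Of 13 tested chemokine genes 6 had a log2 fold change above 0 (median −0.028), and Cxcl1 and Ccl20 were higher and Ccl27a, Cxcl9 and Cxcl10 lower at an unadjusted p below 0.05. Ccl27a, a keratinocyte chemokine that draws skin-homing T cells, stood at 49.4, 92.5 and 34 CPM and 9.33, 24.9 and 30.6 CPM, with every ΔK14 library lower. Leukocyte markers summed to 24.6 to 56.7 CPM in fl/fl and 29.6 to 257 CPM in ΔK14, where the highest value was that of replicate 3 with 7.54, 13.3 and 172 CPM of Cd74 over the 3 ΔK14 libraries. Of the 21 markers 6 were tested, all 6 had a log2 fold change above 0 (median 1.24), and 0 were at an unadjusted p below 0.05. Without ΔK14 replicate 3 the median was −0.27. Without a low-count filter Cd74, H2-Aa and H2-Ab1 were called higher (edgeR adjusted p = 8.29e-07, 0.0016 and 0.0226). Laptm5 was called lower (edgeR adjusted p = 0.0203). The part of leukocyte RNA in the cytokine values was not tested.

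NF-κB feedback genes and targets had 24 tested members and a median of 0.27. Icam1, Cebpd, Rel, Nfkbiz and Nfkbid were higher at an unadjusted p below 0.05 and Traf1 lower, and 5 of the 24 were higher in every ΔK14 library, beside 5.77% of all tested genes. Leaving out 1 library gave 3 to 8 members higher at that p. The count was 8 without ΔK14 replicate 3, where 1463 of 17094 tested genes were at that p in either direction. Icam1, an adhesion molecule, stood at 52.6, 51.3 and 54.7 CPM and 103, 112 and 72.7 CPM. Cebpd, a transcription factor of the acute response, stood at 17.7, 14.5 and 22.2 CPM and 29.97, 28.3 and 52.7 CPM, and Rel, an NF-κB subunit, at 116, 102 and 115 CPM and 162, 165 and 147 CPM. In these 3 genes the genotypes did not overlap, and their adjusted p lay between 0.816 and 0.877 (edgeR). Interferon-stimulated genes, by contrast, had a median of −0.032 over 18 members, with Irf1 higher and Usp18 lower. Immediate early genes had a median of −0.017 over 29, with Ier5 higher and Klf2 lower.

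A further list holds 16 genes that the study names in its account of the tumors or as TTP targets, most of them for higher levels in ΔK14 tumor libraries of this series. In treated skin 11 were tested, with a median log2 fold change of 0.79, and Cxcl1 was the 1 at an unadjusted p below 0.05. Leaving out 1 library gave medians of 0.27 to 0.71 and 0 to 4 members at that p and higher, with the lowest median without ΔK14 replicate 2. Lif, Il1a and Cxcl2 had log2 fold changes of 0.91, 0.97 and 1.14 with overlapping groups. Inhba, Sema6d, Sema4d and Areg had −0.13, −0.39, 0.10 and 0.059. Vegfa stood at 29.3, 37.1 and 29.8 CPM and 29.97, 47.4 and 46.8 CPM, and Ereg at 0.869, 0.439 and 3.79 CPM and 1.79, 7.57 and 1.69 CPM. Csf2, Il1b, Mmp9, Pgf and Adam12 had too few counts to be tested. Across ligands of the EGF receptor 9 were tested (median 0.52), and Nrg1, at 25.6, 22.4 and 26.5 CPM and 29.2, 75.1 and 36.2 CPM, was higher in every ΔK14 library. Without ΔK14 replicate 2 the median of this list was 0.083 with 0 members at that p, and without ΔK14 replicate 1 it was 0.71 with 4. In the latter fit 1200 of 16969 tested genes were at that p in either direction.

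Genes of cholesterol metabolism were small but even in their differences. All 25 were tested, and 22 had a log2 fold change above 0, beside 8469 of all 16232 tested genes. The median was 0.33. At an unadjusted p below 0.05, 7 were higher (among them the synthesis genes Hsd17b7, Idi1, Nsdhl, Cyp51, Fdps and Sqle) and 0 lower, and 8 of 25 were higher in every ΔK14 library beside 5.77% of all tested genes. Leaving out 1 library gave 2 to 6 at that p, and medians of 0.22 to 0.37. Hsd17b7, a ketosteroid reductase, stood at 30.4, 33.3 and 22.2 CPM and 37.1, 38 and 59.5 CPM. Nsdhl, a sterol dehydrogenase, stood at 26.5, 24.6 and 23.1 CPM and 40.9, 32.8 and 29.2 CPM. The log2 fold changes of the named 6 lay between 0.45 and 0.63, below a fold change of 2, so none could be called under the fold threshold.

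Hypoxia and glycolysis genes had a median of 0.24 over 34, with Hk2, Pgam1 and Pgk1 higher and Egln3 lower at an unadjusted p below 0.05. Without ΔK14 replicate 3 the median was −0.007, and leaving out 1 library gave 1 to 6 members higher at that p. Hk2, the first enzyme of glycolysis, stood at 87.9, 79.2 and 70.6 CPM and 98.7, 108 and 135 CPM. NRF2 and glutathione genes had a median of 0.094 over 27, with Txn1 higher (41.4, 49.8 and 34.6 CPM against 69.98, 60.2 and 76.9 CPM) and Gstm4 lower. Of proliferation genes 29 of 32 had a log2 fold change above 0, beside 8469 of all 16232 tested genes. Their median was 0.19, and Ccne2 was the 1 at an unadjusted p below 0.05. Without ΔK14 replicate 1 that median was −0.047. Matrix protease and wound genes had a median of −0.007 over 22, with Adamts1 higher (185, 176 and 144 CPM against 235, 330.1 and 326 CPM) and Mmp14 and Timp2 lower. Factors that bind AU-rich elements or remove poly(A) tails had a median of 0.015 over 26, and apart from Zfp36 none was at an unadjusted p below 0.05.

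The AU-rich heptamer was counted in the longest 3′ UTR of every tested gene with an annotated one. It was present in 31.9% of genes with higher levels at an unadjusted p below 0.05 (95% Wilson interval 26.2 to 38.1, 74 of 232), in 31.7% of those with lower levels (27.7 to 36.1, 146 of 460) and in 30.6% of all tested genes (3799 of 12423). The share over all tested genes lay inside both intervals. UTR length differed, with medians of 904.5, 1477 and 1195 bases. Among genes with a 3′ UTR longer than 1849 bases the shares were 63.4% (51.8 to 73.6) for higher, 47.5% (40.2 to 54.8) for lower and 53% for all tested genes. The shares were 11.7%, 11.5% and 10.7% among genes with a 3′ UTR of up to 716 bases and 26.9%, 27.3% and 28.1% in between, so the 3 groups lay close together in both shorter classes. Of the 12 genes most different upward, 11 had an annotated 3′ UTR and Lrat was the 1 with a heptamer. The short 3′ UTRs of S100a8 and S100a9, with 68 and 114 bases, held none. Of the 11 most different downward, 10 had a UTR and 4 held a heptamer. A match is only a sequence and no proof of binding.

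**Figure D4:**
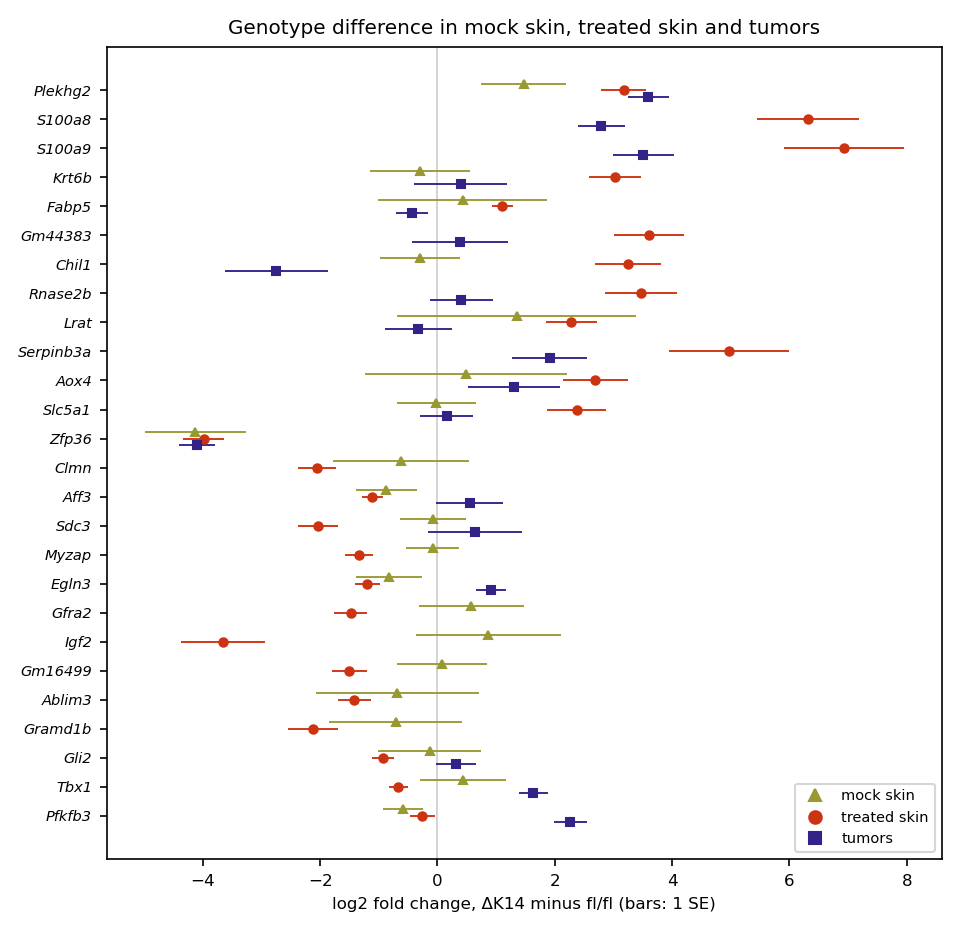
Log2 fold change between genotypes (ΔK14 minus fl/fl, bars 1 SE) in mock skin, treated skin and tumors, for the genes most different in treated skin and for Tbx1 and Pfkfb3. Zfp36 lies near −4 in all 3, Plekhg2 at 1.47, 3.17 and 3.59, and Chil1 at 3.25 in treated skin and −2.75 in tumors. A missing point means that the gene was not tested there.

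The genotype difference in treated skin was then set beside that in mock skin and in tumors. Against mock skin, 0 of 17694 genes were called for a different genotype effect by the edgeR quasi-likelihood test. DESeq2 also called 0, and 257 genes (1.45%) were at an unadjusted p below 0.05 (edgeR). The mock group of ΔK14 held 2 distinct libraries, because its replicates 2 and 3 held the same counts throughout and entered as 1 library. S100a8, S100a9 and Serpinb3a were too low in mock skin to be tested there: S100a8 averaged 0.754 CPM in fl/fl and 0.541 CPM in ΔK14. Krt6b had a log2 fold change of −0.29 in mock skin and 3.03 in treated skin, and Slc5a1 −0.021 and 2.37, with an adjusted p of 1 for the difference between the effects in each case (edgeR).

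Against tumors, 2 of 17017 genes differed in their genotype effect (0.0118%), and 2243 (13.2%) were at an unadjusted p below 0.05. Tbx1 encodes a T-box factor of hair follicle stem cells. Levels of Tbx1 were 44.9, 49.8 and 45.6 CPM in the fl/fl libraries, and in the ΔK14 libraries 24.9, 33.4 and 30.9 CPM. In tumors it averaged 11 CPM in fl/fl and 38.5 CPM in ΔK14. The log2 fold change was −0.67 in treated skin and 1.63 in tumors, and the difference was −2.36 (SE 0.28, edgeR adjusted p = 0.0217). Pfkfb3, which drives glycolysis through fructose 2,6-bisphosphate, had −0.26 and 2.27, a difference of −2.59 (SE 0.35, adjusted p = 0.0476), from 12.9, 16.2 and 13.5 CPM and 9.69, 12.4 and 13.9 CPM in treated skin, where the groups overlapped.

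Other members of the treated pattern had unlike values in tumors without a call. Klk7 had log2 fold changes of 1.87 in treated skin and −4.34 in tumors (edgeR adjusted p = 0.0886 for the difference), and Klk6 3.05 and −3.90 (adjusted p = 0.124). Chil1 had 3.25 and −2.75 (adjusted p = 0.148), and Egln3 −1.19 and 0.91 (adjusted p = 0.0683). Nfkbiz had 0.49 and −0.97 (adjusted p = 0.124). S100a8 was higher in ΔK14 in both, by 6.32 and 2.79, and rested on different levels, 1.57 CPM in treated and 97.2 CPM in tumor fl/fl cells on average. Plekhg2 had 3.17 and 3.59 with an adjusted p of 0.740 for the difference. Tnf and Cxcl1 are named by the study for their levels in these tumor libraries, so larger values there are not independent evidence. Tnf had 0.79 and 2.27 (adjusted p = 0.370 for the difference) and Cxcl1 1.02 and 1.73 (adjusted p = 0.576), so a difference between the effects was not shown for either.

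**Figure D5:**
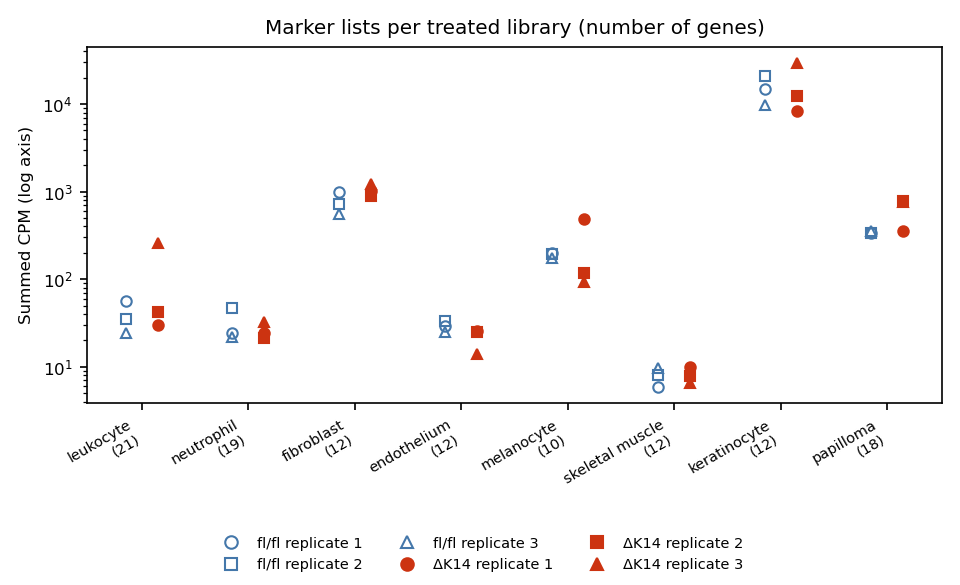
Summed CPM (log axis) of 8 marker lists in each treated skin library, with the number of genes per list in brackets, open blue symbols for fl/fl and filled red symbols for ΔK14. Leukocyte markers reach 257 CPM in ΔK14 replicate 3 and melanocyte markers 484 CPM in ΔK14 replicate 1. Neutrophil markers stay at or below 46.3 CPM, a sum that rests on few of the listed genes.

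Markers of cells that the sort should remove were measured in the same libraries. Fibroblast markers summed to 556 to 988 CPM in fl/fl and 891 to 1225 CPM in ΔK14. Postn, one of them, varied with component 1 (339.6, 323 and 85.1 CPM and 42.2, 149.9 and 784 CPM). It made up most of the sum in ΔK14 replicate 3. The 10 tested fibroblast markers had a median log2 fold change of −0.055, with 5 above 0. Loxl1 was lower at an unadjusted p below 0.05 (edgeR), beside 3.49% of all tested genes. Leaving out 1 library gave medians of −1.18 to 0.17. Endothelial markers summed to 25.1 to 33.1 CPM and 13.9 to 25.8 CPM. Melanocyte markers summed to 173 to 198 CPM in fl/fl and 92.8 to 484 CPM in ΔK14, where Tyrp1 stood at 118, 12.9 and 11.8 CPM, so ΔK14 replicate 1 was high. Skeletal muscle markers summed to 5.86 to 9.68 CPM and 6.59 to 10.05 CPM. The share of counts from mitochondrial transcripts was 4.85, 5.80 and 5.46% in fl/fl and 8.04, 7.85 and 4.86% in ΔK14. The exon length of genes also differed, with a median of 2721 bases among those higher at an unadjusted p below 0.05, 4858 among those lower and 3728 over all tested genes. The part of these measures in the gene differences was not tested.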

How the data were processed

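RNA from sorted epidermal cells was made into Ovation SoLo libraries and sequenced on Illumina HiSeq instruments. The authors deposited 1 table of raw counts per gene for 18 columns, with no normalization. Their processing notes list Trimmomatic 0.36, STAR 2.5.3, HTSeq 0.9.1, DESeq2 and build mm10, without saying which step each served. The annotation release, strand setting and duplicate handling are not given in the sources used here. The counts were used as deposited. Mock ΔK14 replicates 2 and 3 were identical and counted as 1 library, leaving 17.

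The 6 treated libraries were fitted with edgeR 4.0.16 (R 4.3.3): filterByExpr with its defaults, TMM, estimateDisp, glmQLFit and glmQLFTest, Benjamini-Hochberg adjustment over all tested genes, and a call at an adjusted p below 0.05 and a fold change above 2. Fold changes carry the default prior count of 0.125. The test gives no standard error, so each SE is the absolute log2 fold change divided by the square root of the F statistic. The study's methods name edgeR, a false discovery rate and a fold threshold. Differences between stages were tested as interactions on the libraries of both stages. DESeq2 1.42.0 and the edgeR exact test were alternatives, with other filters, normalizations, all libraries in 1 fit, a replicate block and leaving out each library. The procedure was tested on simulated counts. CPM used TMM factors over the 17 libraries, and groups did not overlap where the lowest CPM of one exceeded the highest of the other. Gene lists are described by counts and medians, without a set test. Genes are named by rule: Zfp36 and its paralogs, called genes, the 12 per direction with the smallest p among those without overlap and at 5 CPM or more in the higher group, up to 4 members per list by smallest p, genes that the study names, genes within 100 kb of Zfp36 at an unadjusted p below 0.05, and up to 6 called genes per interaction. Further members are named where they make up a count that is given. Other genes are said to be chosen after their values were seen: Fgf5, Krt1, Krt10, Postn, Cd74, Tyrp1, Pla2g4e and Stc1 in the report. The neutrophil markers named singly were also chosen after their values were seen. Results of some genes that the rule names are not reported here. Members and lists were chosen with earlier results of these data known. Coordinates, exon lengths and 3′ UTRs came from GENCODE vM21 (GRCm38), matched by gene ID. The heptamer TATTTAT was searched on the transcript strand, and 30.6% of tested genes with a 3′ UTR held it. Components came from log2 CPM of the tested genes with a prior count of 2. The treated libraries held 4124233 to 7404684 counts, and intervals cover counting error only.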

Additional observations from a re-analysis of the deposited data

Results flagged for a closer look

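The genotype effect of 2 genes differed between treated skin and tumors by a test of the difference itself. For Tbx1 the treated effect minus the tumor effect was −2.36 on the log2 scale (edgeR adjusted p = 0.0217): every ΔK14 library was below every fl/fl library in treated skin, and the mean was higher in ΔK14 tumors. Over 21 alternatives Tbx1 was called in 11, with values from −2.61 to −2.23 and adjusted p from 1.63e-10 to 0.310. For Pfkfb3 it was −2.59 (adjusted p = 0.0476), it was called in 6 of 21, and values ran from −2.92 to −2.46, with adjusted p from 1.99e-09 to 0.192. In treated skin alone Pfkfb3 overlapped between genotypes.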

How the results depend on the processing

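The count of genes called between genotypes in treated skin was 1. It was 36 with DESeq2, 44 with the edgeR exact test, 0 with robust quasi-likelihood, 218 without a low-count filter, 2 in 1 fit of all libraries (Zfp36 and S100a8), 54 with component 1 as a covariate, and 0 to 12 when 1 library was left out. It stayed at 1 with RLE normalization, a mean count of at least 10, the bias-adjusted quasi-likelihood (chosen after seeing the data, as was the covariate) and the replicate block. No pairing by replicate number was seen: deviations of same-numbered libraries correlated at −0.183, −0.127 and −0.59. With so few libraries per group these values depend on each other and cannot settle how the samples were handled. In the block fit the Zfp36 call and the count of 1 were as before. The difference from tumors gave 2 calls, against 206 with DESeq2, 1003 without a filter, 1 with RLE normalization, 1 with a mean count of at least 10, 0 in 1 fit of all libraries, 1 with the replicate block, and 0 to 1352 with 1 library left out, the highest without tumor fl/fl replicate 1 and 6 without tumor ΔK14 replicate 1. The difference from mock skin gave 0 calls under every alternative run. The share of 3′ UTRs with the motif was 10.3%, 6.74% and 8.23% for genes higher, genes lower and all tested genes with the nonamer, and 28.1% of all tested genes with the transcript listed first. Zfp36 had log2 fold changes of −4.20 to −3.72 over all alternatives, and its call was lost with robust quasi-likelihood and without fl/fl replicate 1, fl/fl replicate 2 or ΔK14 replicate 2. Log2 fold changes of genes that were not called changed sign for Areg (−0.11 to 0.35), Cd74 (−0.53 to 2.53), Ereg (−0.051 to 2.39), Inhba (−0.68 to 0.26), Krt1 (−0.090 to 1.85), Krt10 (−0.59 to 1.22), Krt75 (−1.09 to 0.026), Padi4 (−0.85 to 0.51), Postn (−1.35 to 0.86), Sema4d (−0.093 to 0.27), Tyrp1 (−0.90 to 1.53) over the fits that left out 1 library, and with the replicate block for Areg (−0.032), Padi4 (−0.28), Postn (−0.58), and with component 1 as a covariate for Areg (−0.010), Padi4 (−0.27), Postn (−0.36). The causes were not tested. The planned legacy form of the quasi-likelihood is the default of the installed edgeR and so was the fit as reported. A single count was worth 0.109 to 0.219 CPM in the treated libraries, which limits the values of genes near that level.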

Other observations

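Apart from Igf2, Lrat, Aox4 and Rnase2b, the genes named here were chosen after their values were seen, and none was called by the edgeR quasi-likelihood test. Stefin A genes encode small inhibitors of cysteine proteases and lie together on chromosome 16. Stfa1 was measured at 8.36, 13.4 and 1.57 CPM in the fl/fl libraries and at 29.8, 66.8 and 188 CPM in the ΔK14 libraries. The level of BC100530 was 77.2, 126 and 15.4 CPM in fl/fl replicates 1 to 3 and 162, 272 and 891 CPM in ΔK14 replicates 1 to 3. Levels of BC117090 were 1.30, 3.07 and 0.261 CPM in the fl/fl libraries, and in the ΔK14 libraries 4.13, 11.2 and 31.4 CPM. In these 3 genes every ΔK14 library was above every fl/fl library, ΔK14 replicate 3 was highest and fl/fl replicate 3 lowest. The log2 fold changes were 3.63, 2.58 and 3.44. Stfa3, in the same cluster, stood at 71.2, 143 and 19 CPM and 97.3, 89.9 and 663 CPM with overlap, and Csta1, a related gene nearby, at 4.34, 3.51 and 2.09 CPM and 6.28, 7.70 and 7.61 CPM without. The copies are close in sequence, so the counting could have split reads between them.

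Genes that handle retinoids lay on both sides beside Lrat and Aox4. Crabp2, which carries retinoic acid to its receptors, stood at 13.9, 6.58 and 4.97 CPM and 14.2, 42.4 and 31.3 CPM, higher in every ΔK14 library. Aldh1a2, which makes retinoic acid, stood at 1.52, 4.17 and 2.88 CPM and 0.359, 1.17 and 0 CPM, and Dhrs3, a retinaldehyde reductase, at 30.1, 36.6 and 31.8 CPM and 19.6, 22.3 and 27.4 CPM, both lower in every ΔK14 library. Aldh1a3 overlapped, at 28.2, 8.77 and 8.24 CPM and 54.7, 23.2 and 18.6 CPM, as did Rdh10, at 8.58, 7.46 and 12.9 CPM and 15.4, 16.6 and 12 CPM.

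H19 and Igf2, imprinted neighbors on chromosome 7, were on opposite sides: H19 stood at 2.17, 3.51 and 2.61 CPM in fl/fl and 6.10, 11.4 and 31.8 CPM in ΔK14, against 5.76, 7.24 and 27.7 CPM and 1.08, 1.44 and 0.676 CPM for Igf2. Col14a1, a fibril-associated collagen, stood at 30.7, 51.1 and 39.9 CPM and 4.31, 10.8 and 23.8 CPM, and Zbtb16, a transcription factor, at 15.6, 25.7 and 20.5 CPM and 2.51, 4.57 and 12.3 CPM. Some genes were nearly uncounted in ΔK14. Ear2, of the RNase A family like Rnase2b, had 47 counts over the fl/fl libraries and 2 over the ΔK14 libraries, a ratio of 21 after scaling (95% exact interval 5.50 to 179). Gdf10, of the BMP family, had 54 and 4 counts, a ratio of 12.1 (4.45 to 45.9). These intervals cover counting error only.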
